A study of Arabidopsis thaliana with 3 samples.

Results

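Transcripts of 10 genes of carotenoid biosynthesis and the xanthophyll cycle were followed in whole seedlings of wild-type Arabidopsis thaliana (Col-0). The genes were taken by their identifiers from a table of 37336 genes, and all 10 were found. In pathway order they are PSY (AT5G17230), PDS3 (AT4G14210), ZDS (AT3G04870), CRTISO (AT1G06820), LYC (AT3G10230), LUT2 (AT5G57030), LUT1 (AT3G53130), BCH1 (AT4G25700), ZEP (AT5G67030, also ABA1) and NPQ1 (AT1G08550, also VDE). Polyadenylated RNA was sequenced from 3 libraries of untreated seedlings aged 7 days, which the growth protocol places on sucrose-containing agar at a constant temperature under long days. All 3 libraries belong to 1 group, so no comparison between genotypes or treatments was made here. Nothing in the labels says that the libraries came from separate plants or cultures, so the p-values below measure only how far these samples spread, and that spread may be technical.

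Carotenoids are plastid isoprenoids that harvest light and protect the photosystems. PSY commits geranylgeranyl diphosphate (GGPP) to the pathway by forming phytoene, and a series of desaturases and isomerases turns phytoene into red lycopene. At lycopene the pathway forks, with lutein at the end of one arm and zeaxanthin on the other. Zeaxanthin and violaxanthin are interconverted in the xanthophyll cycle, in which zeaxanthin helps leaves to dissipate excess light as heat, and cleavage of epoxidised xanthophylls gives the precursor of the hormone abscisic acid.

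The stretches upstream of 4 genes that the results below single out are shown. Their bearing on the levels was not tested. PSY is the entry to the pathway, ZEP was its most abundant transcript, LUT2 had the profile over the libraries nearest to that of ZEP, and NPQ1 varied most. Each sequence is from RefSeq (TAIR10.1), reads 5′ to 3′ in the direction of the gene and runs from 250 bases before the annotated start to 50 bases after it. PSY lies on the minus strand (chr5:5662948-5663247), LUT2 on the plus strand (chr5:23076870-23077169), ZEP on the minus strand (chr5:26757353-26757652) and NPQ1 on the plus strand (chr1:2706618-2706917). Capitals mark matches to ATCTA or to ACGT on either strand.
PSY: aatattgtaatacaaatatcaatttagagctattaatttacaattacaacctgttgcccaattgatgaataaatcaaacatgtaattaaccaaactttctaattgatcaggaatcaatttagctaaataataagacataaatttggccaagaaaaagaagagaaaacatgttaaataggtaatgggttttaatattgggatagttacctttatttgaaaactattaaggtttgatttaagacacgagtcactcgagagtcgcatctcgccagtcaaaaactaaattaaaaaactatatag
ZEP: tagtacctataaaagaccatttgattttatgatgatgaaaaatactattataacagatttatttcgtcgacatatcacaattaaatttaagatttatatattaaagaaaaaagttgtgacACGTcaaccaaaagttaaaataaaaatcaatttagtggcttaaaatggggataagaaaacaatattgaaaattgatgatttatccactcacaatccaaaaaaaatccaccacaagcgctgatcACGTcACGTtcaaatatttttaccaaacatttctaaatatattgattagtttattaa
LUT2: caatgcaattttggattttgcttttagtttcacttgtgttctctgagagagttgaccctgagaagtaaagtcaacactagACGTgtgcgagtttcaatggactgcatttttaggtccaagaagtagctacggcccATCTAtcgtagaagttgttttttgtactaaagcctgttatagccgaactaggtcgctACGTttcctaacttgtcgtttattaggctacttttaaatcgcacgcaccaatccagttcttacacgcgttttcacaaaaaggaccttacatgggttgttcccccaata
NPQ1: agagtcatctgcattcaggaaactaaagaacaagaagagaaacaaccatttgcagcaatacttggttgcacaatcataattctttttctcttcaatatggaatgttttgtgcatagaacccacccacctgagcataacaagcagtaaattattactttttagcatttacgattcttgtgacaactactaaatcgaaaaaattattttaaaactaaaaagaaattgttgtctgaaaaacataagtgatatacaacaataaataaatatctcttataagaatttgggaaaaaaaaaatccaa

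The motifs searched were the G-box CACGTG, its core ACGT, which every G-box holds, and ATCTA, an element described for the PSY promoter, each on both strands. In these windows 0 of the 10 genes held CACGTG, against 7.68% of 27443 promoters of protein-coding genes. The core ACGT was found in 5 of 10 windows, against 49.9% of all promoters, and ATCTA in 5 of 10, against 54.0%. ZEP held ACGT at positions -130, -7 and -2 before the start, and LUT2 held it at -170 and -58 and ATCTA at -115. PSY and NPQ1 held none of the 3 motifs in this window. The shares among the 10 genes were close to those of all promoters, and a match is a string of letters, not a shown binding site.

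The libraries held 32967215, 31761722 and 27069921 counts in replicates 1, 2 and 3. Levels are given as CPM, counts scaled to 1e+06 of the TMM-adjusted library size, and 3 counts correspond to 0.0843, 0.0981 and 0.115 CPM in the 3 libraries. The tissue label of whole seedlings was checked against markers. Shoot markers were high, with RBCS1A, LHCB1.3 and RCA between 5702 and 23356 CPM per kb of exons on average, and 0 of 3 flower markers reached 1 CPM in each library. Root markers were unequal between libraries. Their sum over 8 genes was 26.9 CPM in replicate 1 against 147 and 151 CPM in replicates 2 and 3. Not all followed that sum, with SHR at 17.4, 21.9 and 27.4 CPM and WOX5 at 0.534, 0.425 and 0.422 CPM. Of the 8 genes 4 reached 1 CPM in each library, and the nitrate transporter gene NRT2.1 was at 0 counts in each. Sums of 3 seed storage markers were 221, 5.92 and 36.3 CPM. In whole seedlings, fewer cells of a type and less RNA per cell cannot be told apart. Replicate 1 also stood apart over the table, and the chi-square per degree of freedom over 19016 genes was 106 for replicate 1 against 2, 121 for 1 against 3 and 12.4 for 2 against 3, so no pair was 1 library deposited again.

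All 10 genes were expressed in each library, from 17.2 to 483 CPM. Together they took 0.144% of the counts in replicate 1 (exact 95% binomial interval 0.142 to 0.145), 0.124% in replicate 2 (0.123 to 0.126) and 0.103% in replicate 3 (0.102 to 0.104); these intervals cover counting error only. The sums were 1331, 1292 and 1073 CPM. Levels of different genes were compared per kb of merged exons. On that scale the median of the 10 genes was 37.5 CPM per kb, against 9.14 for the 17050 genes at 1 CPM or more in each library.

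**Figure D1:**
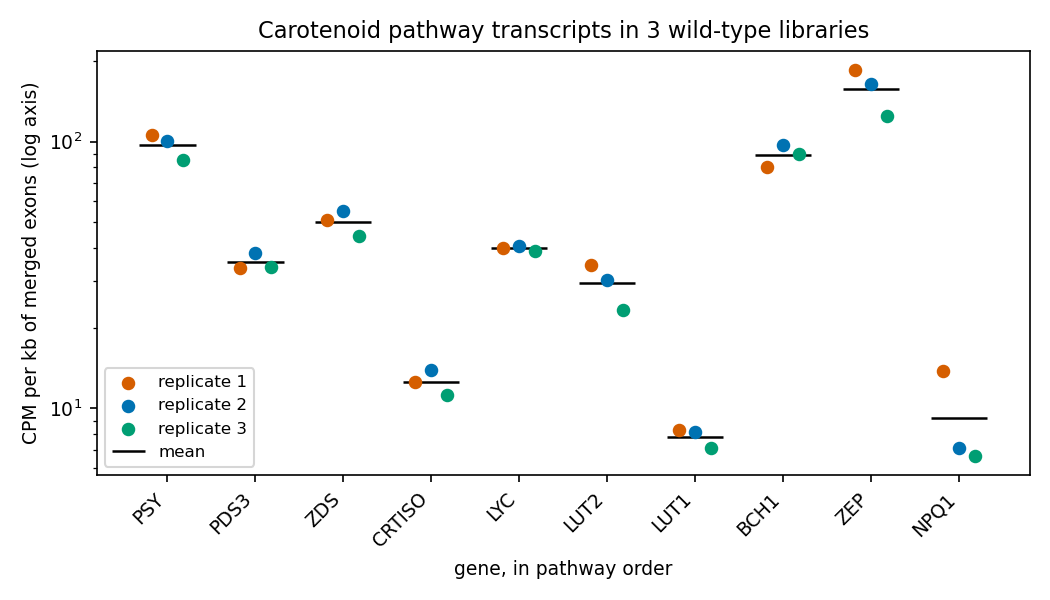
Level of each gene in CPM per kb of merged exons (log axis), in pathway order, with 1 point per library and a bar at the mean of the 3. ZEP is highest in each library and the 3 points of LYC nearly coincide, while NPQ1 in replicate 1 sits well above its other points.

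At the entry, PSY was abundant. Its level was 265, 251 and 215 CPM in replicates 1, 2 and 3, or 97.0 ± 10.3 CPM per kb (SD, n = 3), which placed it at percentile 94.2 of the detected genes. The gene (chromosome 5, 5659554 to 5662997) has 4 annotated transcripts, the longest coding sequence covering 1314 of 2509 bases of merged exons. It was lowest in replicate 3.

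The desaturation steps that follow were lower and unequal. PDS3 (chromosome 4, 8190190 to 8195320), which introduces the first double bonds into phytoene, was at 81.3, 92.5 and 81.6 CPM. ZDS (chromosome 3, 1342455 to 1346387), which desaturates zeta-carotene, was at 110, 119 and 96.0 CPM. CRTISO (chromosome 1, 2092946 to 2096784), which isomerises the product to all-trans lycopene, was at 35.2, 39.1 and 31.7 CPM. All 3 genes were highest in replicate 2.

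Per kb, PDS3 stood 2.74-fold below PSY, with log2 ratios of −1.64, −1.38 and −1.34 in replicates 1, 2 and 3. ZDS stood 1.41-fold above PDS3, with a log2 ratio of 0.50 ± 0.10 (SD, n = 3), and CRTISO stood 3.95-fold below ZDS, with a log2 ratio of −1.98 ± 0.02. The CRTISO to ZDS ratio had the smallest SD of the 8 ratios computed. The isomerase that acts between PDS3 and ZDS, Z-ISO (AT1G10830), was at 17.9, 30.8 and 30.8 CPM, lowest in replicate 1, and its mean of 13.3 CPM per kb was near that of CRTISO, 12.6.

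At the fork, the gene for lycopene beta-cyclase, LYC, was the steadiest member. LYC (chromosome 3, 3164075 to 3166038), which acts in both arms, was at 78.5, 79.5 and 76.3 CPM, a coefficient of variation (CV) of 2.07%. LUT2 (chromosome 5, 23077120 to 23080096), whose epsilon-cyclase opens the lutein arm, was at 73.4, 64.5 and 50.02 CPM. LUT2 was below LYC in each library, and its values did not overlap those of LYC. Per kb the log2 ratio of LUT2 to LYC was −0.21, −0.42 and −0.72 in replicates 1, 2 and 3, a mean 1.37-fold difference. The coding sequences of the cyclases were identical at 59.2% of aligned bases. Exon positions shared with other genes made up 18.1% of LYC and 3.47% of LUT2.

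Of the hydroxylases of the arms, BCH1 and LUT1 stood far apart. BCH1 (chromosome 4, 13093869 to 13096049), a beta-ring hydroxylase that leads to zeaxanthin, was at 141, 171 and 158 CPM, lowest in replicate 1. LUT1 (chromosome 3, 19692757 to 19697542), the cytochrome P450 that hydroxylates the epsilon ring of lutein, was at 27.8, 27.4 and 23.8 CPM. Per kb LUT1 stood 11.2-fold below BCH1, with a log2 ratio of −3.48 ± 0.20 (SD, n = 3). That size depends on the gene model, since 39.2% of the exon positions of LUT1 are also annotated to AT3G53140 on the same strand. AT3G53140 lies wholly within LUT1 and had 0 counts in each library. Counting only exon positions of 1 gene in the length, an alternative chosen after the data were seen, the difference was 6.84-fold.

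Such zeros were general in the table. Of 369 protein-coding genes whose exon positions were all shared with another gene, 366 had 0 counts in every library (99.2%), against 18.2% of 19821 protein-coding genes that shared none. The level of LUT1 is therefore uncertain. NPQ1 shared 17.96% of its exon positions with AT1G08560 on the opposite strand, which had 572, 336 and 213 counts, with the strand setting of the counting not given in the sources used here.

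A paralog of BCH1, BCH2 (AT5G52570), was also expressed. BCH2 was at 60.2, 88.7 and 72.9 CPM, like BCH1 lowest in replicate 1 and highest in replicate 2. Per kb BCH1 stood 1.54-fold above BCH2, with log2 ratios of 0.75, 0.48 and 0.64. Because the pair could share reads, their coding sequences were compared, and they were identical at 83.7% of 887 aligned bases. The longest run of bases common to both, shown because it bounds how long a read could be and still match both exactly within the coding sequence, was 33 bases, at positions 502 to 534 of the BCH1 coding sequence counted from its first base.
BCH1 and BCH2: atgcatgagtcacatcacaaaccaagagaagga
No stretch of 50 bases within an exon of BCH1, of BCH2 or of any other of the 10 genes occurred a second time in the nuclear chromosomes of TAIR10.1.

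The xanthophyll cycle enzymes were unequal, with ZEP at the top of the range and NPQ1 near its bottom. ZEP (chromosome 5, 26753469 to 26757402), the epoxidase that makes violaxanthin from zeaxanthin, was at 483, 429 and 324 CPM and was the highest of the 10 genes in each library, at percentile 96.5 of detected genes. NPQ1 (chromosome 1, 2706868 to 2709988), the de-epoxidase that reverses the reaction in strong light, was at 35.6, 18.3 and 17.2 CPM, at percentile 50.2. Per kb NPQ1 stood 17.8-fold below ZEP, with log2 ratios of −3.74, −4.52 and −4.20. The difference was 14.6-fold with only unshared exon positions in the length and 12.5-fold with coding length. ZEP exceeded PSY 1.61-fold per kb of merged exons, but the log2 ratio of 0.69 ± 0.14 (SD, n = 3) was 0.13 when coding length was used. ABA4 (AT1G67080), needed for neoxanthin, was at 23.1, 20.6 and 19.7 CPM.

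Per kb of merged exons, all 3 libraries gave the same direction for each of the 8 ratios. A two-sided exact permutation test that flips signs over libraries (n = 3) gives p = 0.25 at the least, so no ratio could pass, and its Benjamini-Hochberg adjusted value over the 8 ratios was 0.25 for each. Ranked by mean CPM per kb, the order was ZEP, PSY, BCH1, ZDS, LYC, PDS3, LUT2, CRTISO, NPQ1 and LUT1. Neighbours in this order were counted as apart when the higher gene led in 3 of 3 libraries and the mean log2 difference exceeded its SD. PSY and BCH1, PDS3 and LUT2, CRTISO and NPQ1, and NPQ1 and LUT1 were not apart by this measure. With only unshared exon positions in the length, LUT1 at 12.9, CRTISO at 12.6 and NPQ1 at 11.2 CPM per kb changed places.

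**Figure D2:**
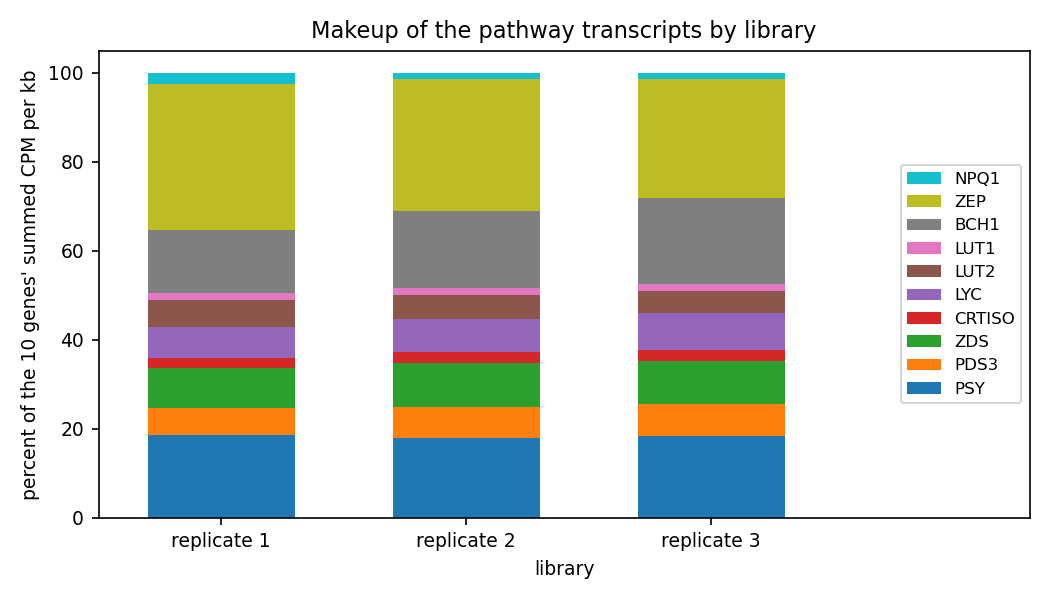
Share of each gene in the summed CPM per kb of the 10 genes, as 1 stacked bar per library that adds to 100%. ZEP takes 32.9%, 29.6% and 26.7% in replicates 1, 2 and 3, PSY 18.7%, 18.04% and 18.4%, and BCH1 14.2%, 17.5% and 19.3%.

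Per kb of merged exons, ZEP held the largest share of the summed CPM in each library and LUT1 or NPQ1 the smallest. The lead of ZEP depends on the length used. With coding length its log2 ratio to PSY was 0.13 ± 0.14 (SD, n = 3). PSY held 18.4% ± 0.326 (SD, n = 3), LUT1 1.49% ± 0.0315 and CRTISO 2.38% ± 0.148. The share of ZEP was highest in replicate 1, at 32.9%, where that of BCH1 was lowest, at 14.2%, and in replicate 3 the order was the reverse, with ZEP at its lowest, 26.7%, and BCH1 at its highest, 19.3%. NPQ1 held 2.44%, 1.28% and 1.43%.

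None of the 10 genes was called as more variable between libraries than the trend for its abundance. The goodness-of-fit test of edgeR was fitted to 19016 genes with a trended dispersion and Benjamini-Hochberg adjustment at 0.05, and it called 0 of the 10 genes, where it called 2.03% of all tested genes. At an unadjusted p under 0.05 the count was also 0, where 7.45% of tested genes passed, and DESeq2 marked 0 of the 10 as dispersion outliers, where it marked 0.121% of genes. With shares this low, counts of 0 among 10 genes are uninformative. NPQ1 came nearest, with an unadjusted p of 0.116 and an adjusted p of 0.995 by edgeR, and a CV of 43.5% beside a trend value of 27.9% at its abundance. The other 9 genes had a CV below the trend value, as had 73.5% of all tested genes. The median CV was 10.6% for the 10 genes and 17.9% for the detected genes. These sets were not matched for abundance, with median levels of 37.5 and 9.14 CPM per kb. The trend rests on replicate 1, since the common biological CV of the fit was 0.319 with it and 0.0949 without it. The CVs of the 10 genes do not all rest on it, and 8 of the 10 were lowest in replicate 3. Between replicates 2 and 3 the median absolute log2 difference was larger for the 10 genes, at 0.21, than for all tested genes, at 0.14.

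**Figure D3:**
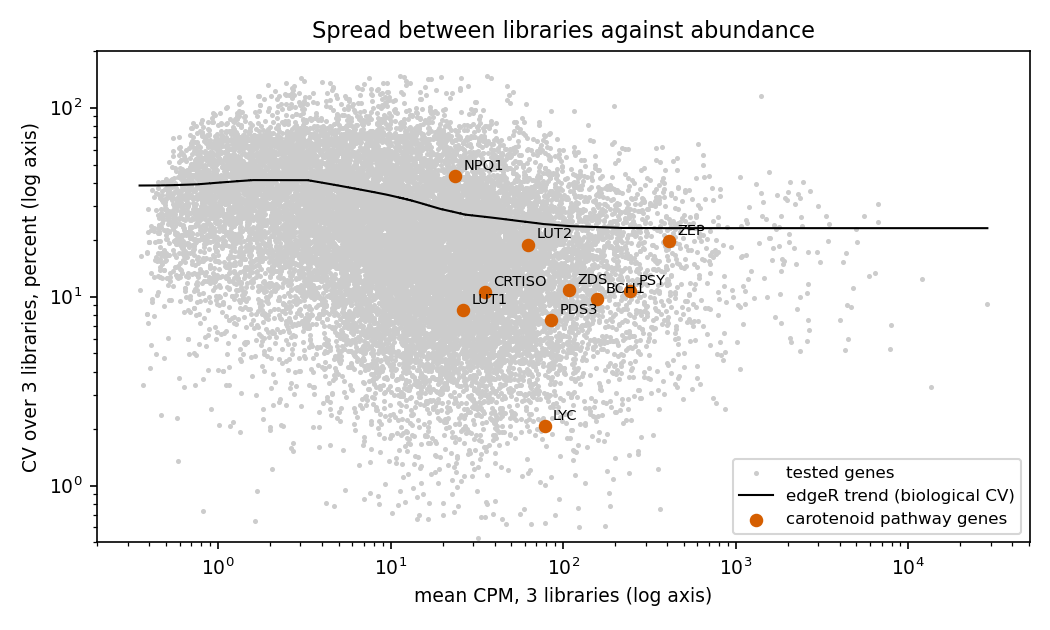
CV over the 3 libraries in percent against mean CPM (both log axes) for 19016 tested genes (grey), the 10 carotenoid genes (orange, named) and the edgeR trend of the biological CV (line). NPQ1 at 43.5% lies above the line and the other 9 genes lie below it, with LYC at 2.07%.

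Beyond counting error alone, 9 of the 10 genes varied (Poisson chi-square test, Benjamini-Hochberg), where 78.4% of tested genes did. LYC was the exception, with an adjusted p of 0.506 by the chi-square test over 3 libraries (19016 genes tested). Without replicate 1, 8 of 10 genes passed the same test, where 24.6% of genes did. LYC (adjusted p = 0.401) and NPQ1 (adjusted p = 0.534) did not pass this chi-square test. These shares over all tested genes are not matched for abundance, and this test finds smaller differences at higher counts. The median level of the 10 genes was 37.5 CPM per kb, against 9.14 for the detected genes. By edgeR's goodness-of-fit test without replicate 1, 0 of 10 genes passed after adjustment, where 0.313% of genes did, and 2 of 10, ZEP and LUT2, had unadjusted p-values under 0.05, at 0.0144 and 0.0335, where 4.86% of genes did. Without replicate 2 the edgeR test called 0 of 10 genes, where it called 0.641% of genes, and without replicate 3 again 0 of 10, where it called 0.665%. The chi-square test called 8 of 10 in both cases, where it called 72.4% and 70.3% of genes. PDS3 lost its call without replicate 2 and LUT1 without replicate 3.

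In replicate 1, which stood apart over the table, NPQ1 had the largest difference of the 10 genes. NPQ1 in replicate 1 was 1.94-fold above replicate 2 and 2.07-fold above replicate 3. Counting genes over 2-fold above both other libraries gave 0 of 10, where 6.74% of tested genes did so, and over 2-fold below both gave 0 of 10, where 7.12% did. Scaled by total counts, NPQ1 was 2.18-fold and 2.32-fold above, and 1 of 10 passed, where 9.69% of genes did. At 1.5-fold, 1 of 10 was above both (NPQ1) and 0 below, where 15.9% and 15.0% of genes were. Of the 10 genes, 5 were highest and 2 lowest in replicate 1, where 45.4% and 43.8% of tested genes were; scaled by total counts, 8 were highest and 0 lowest, where 56.1% and 33.7% of genes were, so no direction is given. The lower sum of root markers and the higher sum of seed markers in replicate 1 given above moved with the NPQ1 difference, and their part in it was not tested. Differences of replicate 1 also followed transcript length over the table, with a median log2 difference from the mean of the other libraries of −0.14 in the shortest of 10 length classes of detected genes, 0.36 in the longest, and 0.10 in the class that holds NPQ1, PSY, PDS3 and ZEP. For NPQ1 that log2 difference was 0.98.

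Between the libraries that were closest to each other, all 10 genes leaned in 1 direction. Each was higher in replicate 2 than in replicate 3, where 51.4% of tested genes were, and the count of 10 was the same with RLE and total-count scaling, where 53.3% and 51.6% of genes were. The median log2 difference was 0.21 for the 10 genes and 0.01 for all tested genes. It ranged from 0.06 for LYC to 0.40 for ZEP, and ZEP, LUT2 and ZDS lay outside the middle 80% of tested genes, which ran from −0.26 to 0.30. LYC and NPQ1 did not differ beyond counting error between these libraries (chi-square test, adjusted p = 0.401 and 0.534). The lean was not particular to the 10 genes. It held for 6 of 7 other pathway genes, 8 of 10 of precursor supply and 4 of 5 of the cleavage list. It also held for 3 of 3 abscisic acid genes, 5 of 5 quenching genes, 4 of 6 GGPP users and 4 of 6 regulators. The 10 genes come from the same libraries and are not replicates, and no test of the list was made. Shoot markers were higher in replicate 2 in 2 of 3 cases, with a median of 0.08, and sums of root markers were 147 and 151 CPM in these libraries. Sums of seed storage markers were 5.92 CPM in replicate 2 and 36.3 CPM in replicate 3, and their part was not tested.

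**Figure D4:**
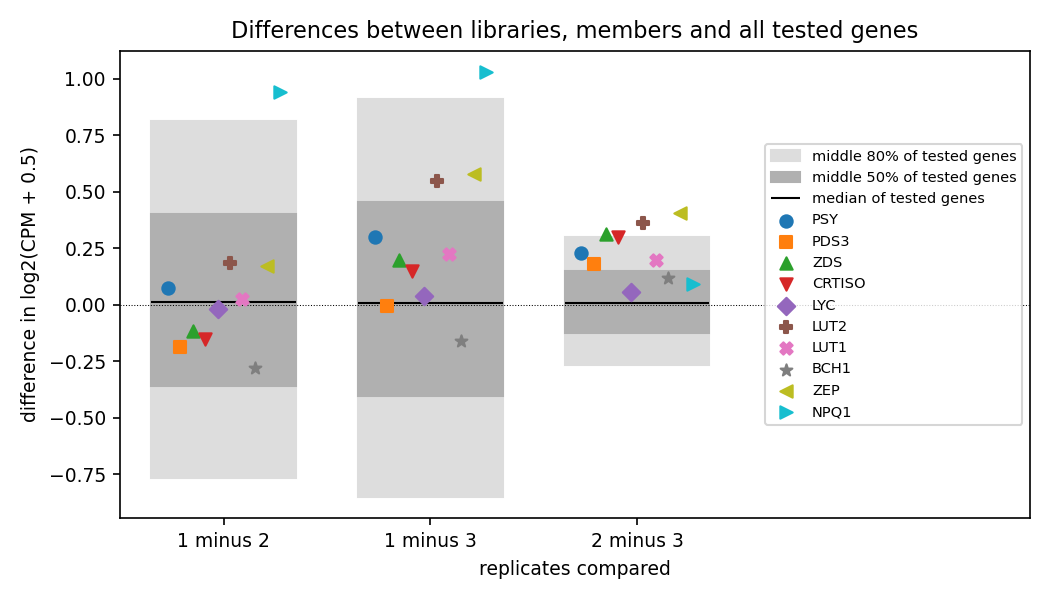
Difference in log2(CPM + 0.5) of each carotenoid gene (coloured symbols) for each pair of libraries, over bands that hold the middle 50% and middle 80% of 19016 tested genes with their median as a line. All 10 symbols lie above 0 for replicate 2 minus replicate 3, and NPQ1 lies above the bands for both pairs with replicate 1.

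Genes whose profile over the 3 libraries was most like that of each gene were sought among 51 other genes. These were the tested genes of all lists except the markers, with regulators and quenching genes included. Likeness was measured by the Euclidean distance between log2(CPM + 0.5) values centred on each gene's mean. ZEP and LUT2 were nearest to each other, at 0.0295, and both were highest in replicate 1 and lowest in replicate 3. PSY was nearest to OR (AT5G61670), a plastid DnaJ-like protein, at 0.0135, and BCH1 to DXR (AT5G62790) at 0.0234. NPQ1 was farthest from its nearest gene, SDG8 (AT1G77300), a histone methyltransferase, at 0.0971. The median distance among the 45 pairs of the 10 genes was 0.251. With 3 libraries these distances are descriptions.

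The other 7 genes of the pathway were all detected, and 0 of 7 were called by edgeR's goodness-of-fit test, where 2.03% of all tested genes were. LUT5 (AT1G31800), the P450 that hydroxylates the beta ring on the way to lutein, was at 55.8, 63.3 and 51.4 CPM. Its mean of 27.4 CPM per kb was above LUT1 at 7.84 and below BCH2 at 58.3 CPM per kb. OR and OR-like (AT5G06130) were at 92.5 ± 9.57 and 60.2 ± 2.78 CPM (SD, n = 3). PTOX (AT4G22260), the plastid terminal oxidase that takes electrons from the desaturation steps through plastoquinone, was at 42.9 ± 1.91 CPM. Of the 7 genes 6 were higher in replicate 2 than in replicate 3, where 51.4% of tested genes were.

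Upstream, the list of precursor supply holds 11 genes, those of the plastid methylerythritol phosphate (MEP) pathway with the isomerases IPP1 and IPP2, GGPPS11 and the GGPP synthase-related GGR. Of these 10 were detected, and edgeR's test called 0 of the 10 tested, where it called 2.03% of all genes. The highest were HDR (AT4G34350), the last enzyme of the MEP pathway, at 306 ± 81.1 CPM per kb, DXS (AT4G15560), its first, at 237 ± 36.7, HDS (AT5G60600) at 98.6 ± 8.21 and DXR at 68.2 ± 5.87 (SD, n = 3). HDR and DXS stood above ZEP, at 158 ± 31.1 CPM per kb, in each library. GGPPS11 (AT4G36810), which makes GGPP in plastids, was listed at 0 in each library, and 100% of its exon positions are shared with a non-coding gene on the opposite strand, so its level cannot be read. Of the 10 tested genes 8 were higher in replicate 2 than in replicate 3, against 51.4% of all tested genes.

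Downstream, the dioxygenases that cleave carotenoids spanned a wide range. CCD4 (AT4G19170), which breaks down carotenoids in plastids, was at 229, 303 and 272 CPM, and CCD1 (AT3G63520), a cytosolic cleavage enzyme, at 265, 183 and 153 CPM. NCED3 (AT3G14440), the stress-induced enzyme of abscisic acid synthesis, was at 24.0, 33.7 and 30.1 CPM. NCED2 (AT4G18350), NCED5 (AT1G30100) and NCED9 (AT1G78390) were under 0.3 CPM on average, and NCED6 (AT3G24220) had 0 counts in each library. In the strigolactone arm, the isomerase D27 (AT1G03055) was at 5.59, 2.94 and 2.07 CPM. CCD8 (AT4G32810) was at 0.984, 0.654 and 0.921 CPM, and CCD7 (AT2G44990) had 1, 1 and 2 counts. Of the 10 genes in the cleavage list, D27 included, 4 were detected, and 0 of the 5 tested were called by edgeR, against 2.03% of all tested genes.

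The 3 genes of the last steps to abscisic acid were detected at unequal levels. ABA2 (AT1G52340), a short-chain dehydrogenase, was at 7.42, 14.9 and 14.2 CPM, lowest in replicate 1, and shared 39.7% of its exon positions with other genes. ABA3 (AT1G16540), the molybdenum cofactor sulfurase, was at 8.38, 4.32 and 3.45 CPM, and AAO3 (AT2G27150), the abscisic aldehyde oxidase, at 16.7, 12.03 and 9.06 CPM, both highest in replicate 1. Per kb the 3 genes lay between 1.81 and 10.3 CPM, below ZEP in each library. ABA3 and AAO3 were at percentiles 9.47 and 13.7 of detected genes, and ABA2 at percentile 53.6. With only unshared exon positions in the length, ABA2 was at 17.1 CPM per kb. edgeR's test called 0 of the 3, against 2.03% of all tested genes. At an unadjusted p under 0.05 it gave 0 in each of the 4 lists described here, against 7.45% of all tested genes. Shares this low leave counts of 0 in lists of this size uninformative.

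**Figure D5:**
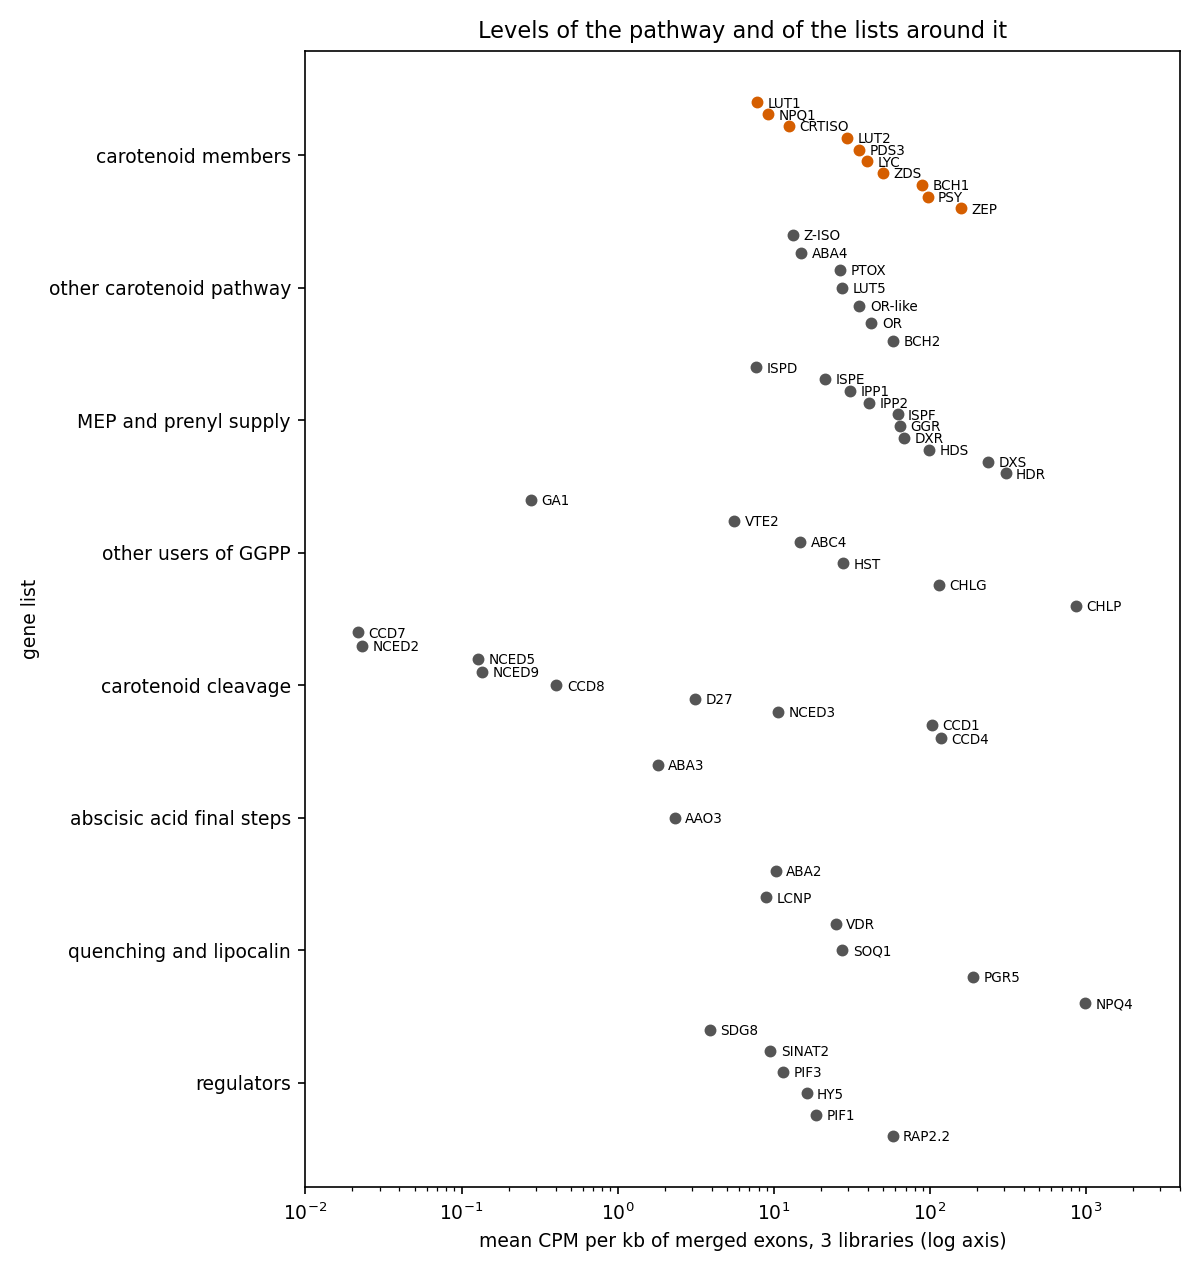
Mean CPM per kb of merged exons over 3 libraries (log axis) for the 10 carotenoid genes (orange) and the genes of 7 lists around them (grey), with 1 point per gene. GGPPS11 and NCED6, listed at 0, are not drawn; the carotenoid genes span 7.84 to 158 CPM per kb, and the cleavage genes reach from 0.0216 to 118.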

How the data were processed

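The authors deposited raw counts of reads per gene, whole numbers, for 3 libraries (columns of other samples: 0). Per the submitters' processing notes, TAIR10, DESeq2, HISAT2 2.1.0 and featureCounts 1.6.1 were involved, in roles the notes do not state. Annotation, strand setting, filters and handling of reads on several genes were not given in the sources used here.

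CPM were made here from these counts by edgeR 4.0.16 in R 4.3.3, with TMM factors of 1.079, 0.963 and 0.962. Detected genes had at least 1 CPM in all libraries. For levels, CPM were divided by the merged exon length in kb (pseudocount 0.1 on the log2 scale), and differences between libraries log2(CPM + 0.5). Gene models, coordinates and sequences are those of RefSeq TAIR10.1, to which 37051 of 37336 identifiers matched; the table holds no coordinates. The edgeR goodness-of-fit test used an intercept-only design after filterByExpr, with TMM factors recomputed on the 19016 genes kept; a Poisson chi-square test used the same genes. Both were tested on simulated data. DESeq2 1.42.0 was an alternative. Python 3.11.15, pandas 2.3.3, SciPy 1.17.1 and Biopython 1.88 were used.

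The 10 genes and the 12 lists (75 genes) were chosen with earlier results of these data known. All 10 genes were named, all genes of the other pathway, cleavage and abscisic acid lists could be named, and of other lists up to the 4 highest and 2 lowest. Alternatives were other scalings, filters, dispersions, pseudocounts and lengths, and leaving out each replicate.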

Additional observations from a re-analysis of the deposited data

How the results depend on the processing

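The count of 0 genes called by edgeR's goodness-of-fit test was the same under RLE and total-count scaling, without the filter on low counts, with a common dispersion, with DESeq2 and without each replicate in turn. The same test called 2.03% of all tested genes, and 0.313% to 0.665% with a replicate left out, and DESeq2 marked 0.121%. Beside such shares, 0 of 10 is uninformative. The count of 9 varying beyond counting error ranged from 8 to 10 over its alternatives. Shares over all tested genes were 78.4% with all 3 libraries, and 24.6%, 72.4% and 70.3% without replicates 1, 2 and 3. The median log2 level of the 10 genes, 5.23 ± 0.06 (SD, n = 3) in CPM per kb, was 6.35 without the length correction, 5.67 with coding length and 5.37 with only unshared exon positions, and 5.19 to 5.28 without each replicate. The count of genes over 2-fold apart in replicate 1, 0 as reported, was 1 with total-count scaling and 1 at 1.5-fold, both times NPQ1. Of all tested genes, 6.74% were over 2-fold above both other libraries, 9.69% with total-count scaling and 15.9% at 1.5-fold. The means of all 8 ratios kept their direction under each of their alternatives. For ZEP over PSY with coding length the mean log2 ratio, 0.13, did not exceed its SD of 0.14. No paired analysis was possible because all samples form 1 group. Depth did not limit the 10 genes, the lowest of which had 448 counts.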

Other observations

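Genes that draw on the same precursor or act beside the pathway covered a wide range of levels. CHLP (AT1G74470), the geranylgeranyl reductase that supplies the phytol of chlorophyll, was at 864 ± 89.5 CPM per kb (SD, n = 3) and CHLG (AT3G51820), the chlorophyll synthase, at 115 ± 10.5, while VTE2 (AT2G18950), which leads to tocopherol, was at 5.61 ± 1.02. GA1 (AT4G02780), which draws GGPP into gibberellin synthesis, had 29, 16 and 23 counts and was not detected. Of the 6 genes listed as users of GGPP 0 were called by edgeR's goodness-of-fit test, against 2.03% of all tested genes, and 0 at an unadjusted p under 0.05, against 7.45%. NPQ4 (AT1G44575), the photosystem II subunit that acts with zeaxanthin in quenching, was at 1301, 2041 and 1999 CPM, lowest in replicate 1, where NPQ1 was highest. PGR5 (AT2G05620) was at 190 ± 8.44 CPM per kb and the plastid lipocalin gene LCNP (AT3G47860) at 8.94 ± 0.171.

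Among 6 regulators edgeR's goodness-of-fit test called 0, beside the 2.03% of all tested genes, and 0 at an unadjusted p under 0.05, beside 7.45%. PIF1 (AT2G20180), a bHLH repressor known to bind the PSY promoter in the dark, was at 55.6, 41.0 and 34.8 CPM, and HY5 (AT5G11260), a bZIP activator of light responses, at 17.5, 21.5 and 22.2 CPM. RAP2.2 (AT3G14230), known to bind ATCTA, was at 106 ± 8.12 CPM (SD, n = 3). SDG8, known to act on CRTISO, was at 35.1, 18.8 and 16.0 CPM, while CRTISO was at 35.2, 39.1 and 31.7 CPM.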
